A study of Mus musculus with 9 samples.

Results

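Hearts of adult C57BL/6J mice were compared for 43 genes of fatty acid uptake and oxidation, out of 15779 genes in the deposited tables. The genes were taken by symbol from a list made for this work, and all 43 had a value in every library. They were grouped by role into 6 genes of uptake and activation, 5 of the carnitine shuttle and its control, 19 of beta oxidation, 8 PPAR regulators and targets, and 5 of lipid stores. Polyadenylated RNA was sequenced from 9 hearts in 3 groups of 3. Wild-type mice were given saline. Mice with the genotype Mybpc3R946X/R946X, a homozygous premature stop codon in the gene of cardiac myosin-binding protein C, were given saline. Further Mybpc3R946X/R946X mice were given high-dose-exABE8e, where ABE8e names an adenine base editor, an enzyme that turns A into G at a guided site. The series' design says that such editors were carried by AAV9 and expressed in cardiomyocytes, so other cells of these hearts may not have received the treatment. The labels gave neither sex nor age in weeks, and nothing states that the libraries of a group came from separate animals, so the p-values below measure the spread between libraries, which may be partly technical.

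The adult heart draws most of its energy from fatty acids. Lipoprotein lipase frees them from circulating triglyceride, carriers such as CD36 bring them into the cell, and acyl-CoA synthetases activate them. The carnitine shuttle moves the acyl groups into the mitochondrion, where beta oxidation shortens them in repeated rounds of dehydrogenation, hydration, dehydrogenation and thiolysis, with the electrons passed on by electron transfer flavoprotein. PPAR alpha, a nuclear receptor that binds fatty acids, pairs with a retinoid X receptor and, with the coactivator PGC-1 alpha (Ppargc1a), drives transcription of many of these genes.

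The receptor pair binds direct repeats of AGGTCA with 1 base between the copies. Promoters of the genes were therefore searched for that pattern, in RefSeq windows on GRCm38.p6 from 250 bases before to 50 bases after the start. At most 2 mismatches in the 12 bases of the 2 copies were allowed, on both strands. Of the 43 genes, 35 had a window, 40 windows in all, and 5 windows (12.5%) held a match, against 3.86% of the 32851 windows in the table. The matches were in Cd36, Slc25a20, Echs1, Etfa and Ucp3. Each had 2 mismatches, the most allowed, and the windows of Slc25a20 and Etfa held no exact AGGTCA. A single AGGTCA, which such a pair can contain, was in 8 of the 40 windows (20.0%), against 16.3% of all. A match describes letters, not binding. The windows of 3 genes are shown with the match in capitals, chosen because these genes were also lower in saline mutants. The other 2 with a match, Cd36 and Ucp3, did not differ at a limma adjusted p under 0.05 (0.549 and 0.264). The remaining genes that were lower at that threshold had no match or no window. In Slc25a20 (chr9:108661886-108662185, plus strand) the match began 6 bases after the start. In Echs1 (chr7:140116372-140116671, minus strand) it lay 83 bases before the start, and in Etfa (chr9:55512194-55512493, minus strand) 77 bases before it, on the other strand.
Slc25a20: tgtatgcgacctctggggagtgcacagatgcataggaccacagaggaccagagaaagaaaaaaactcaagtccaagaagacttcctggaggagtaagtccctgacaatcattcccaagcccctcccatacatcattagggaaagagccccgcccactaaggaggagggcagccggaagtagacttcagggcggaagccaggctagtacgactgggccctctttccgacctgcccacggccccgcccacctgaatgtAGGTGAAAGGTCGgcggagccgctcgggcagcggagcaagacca
Echs1: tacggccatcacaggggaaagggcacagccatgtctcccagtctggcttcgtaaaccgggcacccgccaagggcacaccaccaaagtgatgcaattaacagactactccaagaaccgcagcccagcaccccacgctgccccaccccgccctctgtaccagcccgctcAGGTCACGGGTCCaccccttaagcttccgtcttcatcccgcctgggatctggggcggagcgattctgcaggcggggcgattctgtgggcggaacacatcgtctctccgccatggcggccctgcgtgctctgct
Etfa: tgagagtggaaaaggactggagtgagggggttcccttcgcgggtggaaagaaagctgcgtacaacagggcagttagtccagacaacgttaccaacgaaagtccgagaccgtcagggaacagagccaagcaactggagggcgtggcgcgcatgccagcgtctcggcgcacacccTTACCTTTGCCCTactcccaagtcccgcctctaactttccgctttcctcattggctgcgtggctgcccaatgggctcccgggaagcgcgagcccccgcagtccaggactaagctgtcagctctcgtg

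All values below are as deposited, on a scale on which every library has nearly the same sum. No unit is named for it, so levels of different genes are not compared. Sequencing depth is not known from these values. Mybpc3, the mutated gene, was at 1510 to 2039 in wild type, 133 to 186 in saline mutants and 1024 to 1374 after treatment. Mitochondrially encoded transcripts took 17.0% to 24.1% of a library. Xist, expressed from the inactive X chromosome, was above 0 in 1 library of each group, at 119 in wild type replicate 1, 351 in saline mutant replicate 3 and 39 in treated replicate 1. The Y-linked gene Ddx3y was at 0 in the former pair, at 38 in treated replicate 1 and at 70 to 97 in the other 6 libraries. Treated replicate 1 thus held both transcripts, unlike every other library, and whether it contains RNA of more than 1 animal was not tested. Cardiomyocyte markers were measured for all 10 genes listed. Their summed value was 58599 to 64559 in wild type, 55486 to 66410 in saline mutants and 60765 to 62542 in treated hearts. Genes with high values weigh most in that sum. In saline mutants 6 of the 10 were lower on average than in wild type and 4 higher. Of 8 adipocyte markers, the 2 with values, Cfd and Adig, were at 0 or 1 in every library.

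Saline mutant hearts had lower values than wild-type hearts for most genes of beta oxidation, while 2 PPAR targets were higher. Of the 43 genes, 11 fell and 2 rose at a limma adjusted p under 0.05. That is 25.6% of them lower, against 3.14% of all 13632 genes tested, and 4.65% higher, against 4.56% of all. The 11 that fell were Slc27a1, Slc25a20, Acadm, Hadh, Echs1, Ech1, Eci1, Etfa, Acaa2, Acot1 and Ces1d, and the 2 that rose were Pdk4 and Angptl4. All 3 mutant values lay below all 3 wild-type values for 23 of the 43 genes, 53.5%, against 8.78% of all genes. They lay above for 2, against 12.8% of all. The median log2 difference of the 43 was -0.30, and that of all genes tested was 0.07. The split of calls over all genes depended on scaling, with 59.2% of 1050 calls higher as deposited and 47.6% of 1306 higher after upper-quartile scaling, under which 13 of the 43 genes were called lower and 2 higher. The number of the 43 called was 6 without wild type replicate 1, 5 without wild type replicate 3, 4 without saline mutant replicate 2, 7 without saline mutant replicate 3 and 6 without the 2 libraries with Xist. Of all genes tested, those fits called 4.45%, 4.67%, 3.71%, 5.06% and 4.07% in the same order, against 7.70% as reported. The median over the 43 was between -0.34 and -0.23 in each of them.

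**Figure D1:**
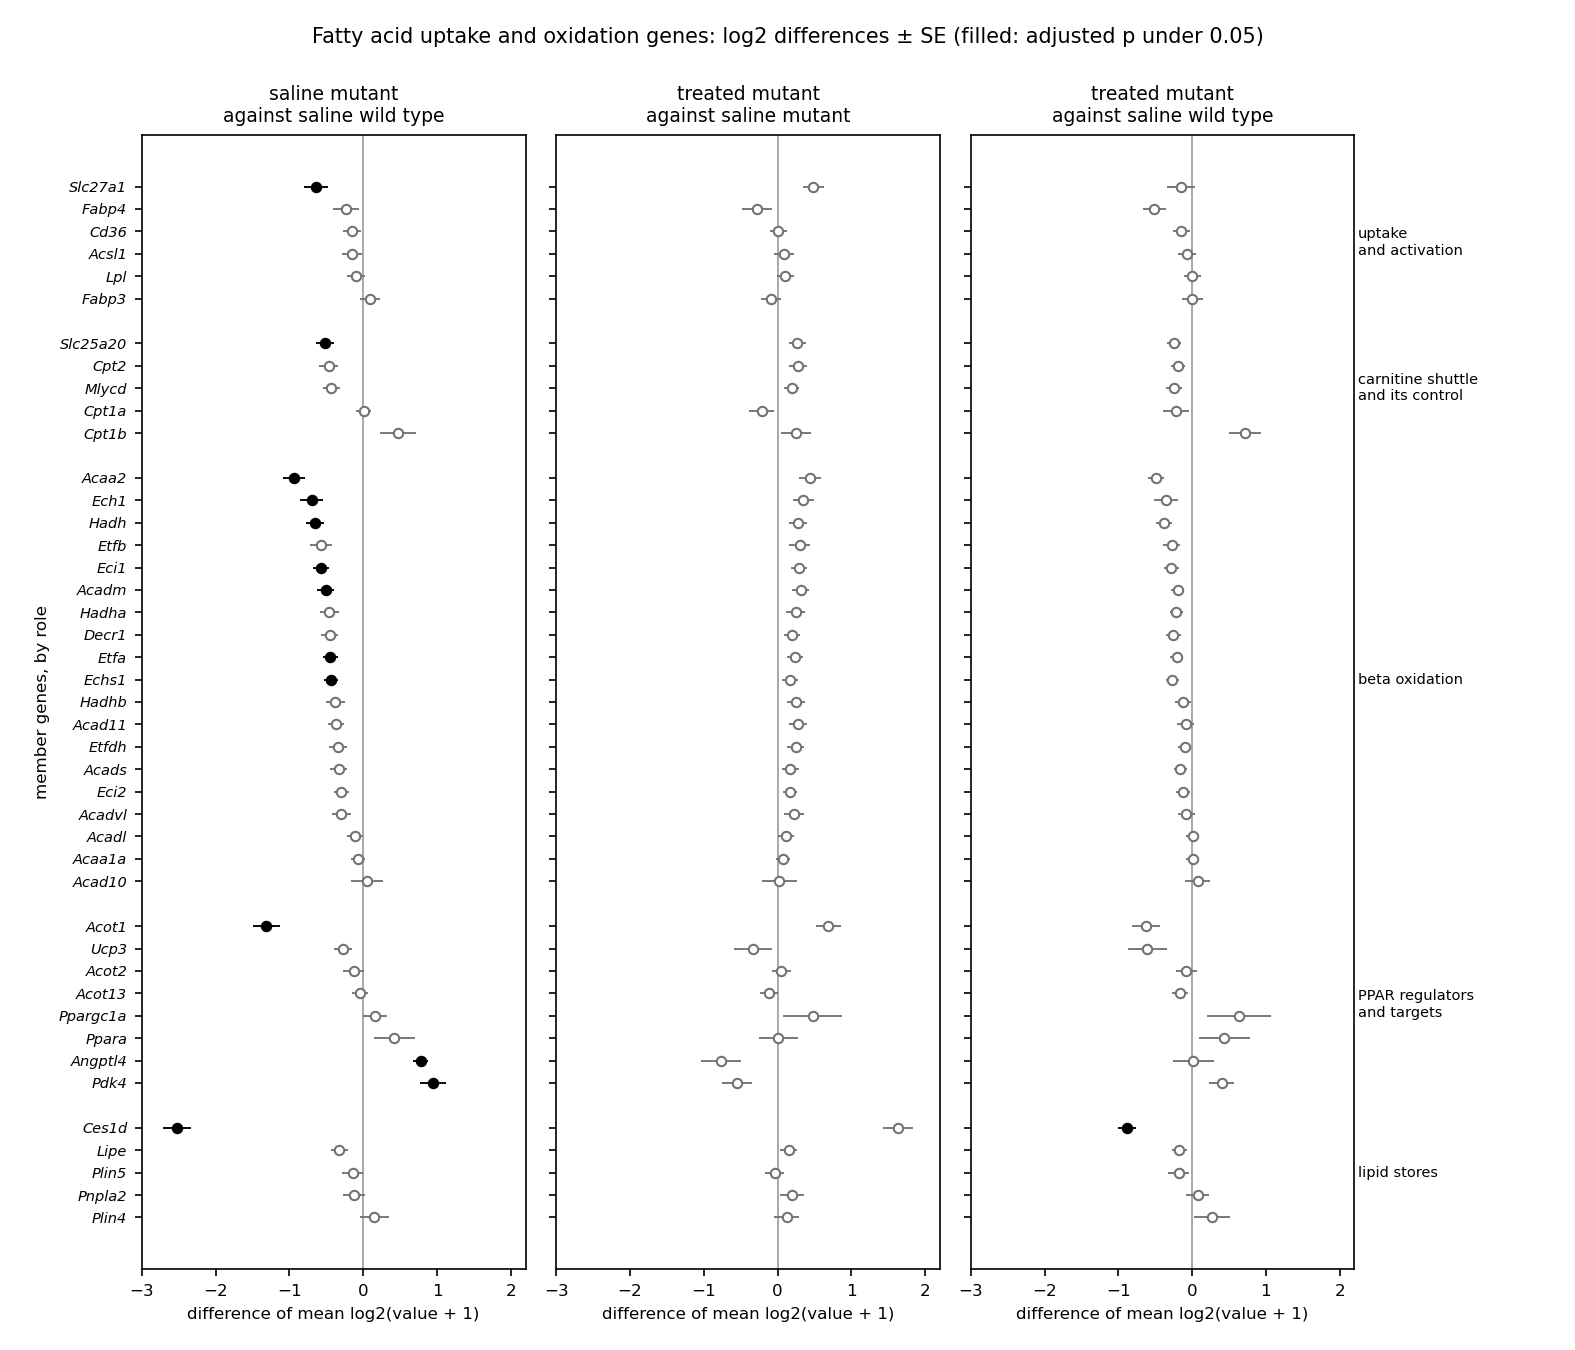
Difference of mean log2(value + 1) ± SE for the 43 genes, ordered within roles by the left panel, in the 3 comparisons (n = 3 libraries a group). Filled points have a limma adjusted p under 0.05: 13 genes in saline mutants against wild type, none in treated against saline mutants, and Ces1d in treated mutants against wild type.

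Single libraries were low for many of the genes in all 3 groups. Wild type replicate 2 was the lowest of its group for 33 of the 43 genes, replicate 3 of the saline mutants likewise for 33, and treated replicate 1 for 23. Replicate 3 of the saline mutants also had the lowest mitochondrial share (17.0%) and the highest summed value of 6 fibroblast markers (3600, against 2247 and 2479 in the other two). All 6 fibroblast markers were higher in saline mutants than in wild type, 3 of them without overlap (50%, against 12.8% of all genes). The fibroblast sum was 1425 to 2047 in wild type. The 6 macrophage markers were also all higher on average, with sums of 262 to 494 against 230 to 320. Of 10 cardiomyocyte markers 4 were below wild type without overlap (40%, against 8.78% of all genes) and 1 was above. The median log2 difference of the 10 was -0.24, against 0.07 for all genes tested. All 5 red blood cell markers were below without overlap, with sums of 69 to 85 against 104 to 313. The part of these differences in the results on fatty acid genes was not tested, and in whole hearts fewer cells of a type and less RNA per cell cannot be told apart. Without replicate 3 of the saline mutants, all 19 beta oxidation genes were lower than in wild type, with a median of -0.34. That fit called 3 of them, and 5.06% of all genes tested.

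In uptake and activation 1 of 6 genes fell, Slc27a1 (16.7%, against 3.14% of all genes), and the other 5 were not called. Slc27a1 encodes a fatty acid transport protein of the plasma membrane. It was at 139, 91 and 129 in wild type, 77, 78 and 71 in saline mutants, then 91, 130 and 100 after treatment. Every saline mutant value was below every other value. The log2 difference of saline mutants from wild type was -0.64 (SE 0.157, limma adjusted p 0.0425). It passed in 9 of 19 alternative fits and missed the threshold without wild type replicate 1 or 3 or without any 1 of the saline mutants.

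Cd36, the main fatty acid carrier of cardiomyocytes, was at 1984, 1660 and 2002 in wild type, 1646, 1580 and 1836 in saline mutants, then 1646, 1616 and 1824 after treatment. The groups overlapped. Its difference was -0.16 with a 95% interval from -0.43 to 0.12 (limma adjusted p 0.549), so a modest change in either direction is within the data. Fabp3, the fatty acid binding protein of heart muscle, had the highest difference of the role and was at 2839, 2165 and 2618, then 2724, 2904 and 2446, then 2916, 2287 and 2431. The 3 groups overlapped here too, and the difference of 0.09 (interval -0.22 to 0.40, limma adjusted p 0.780) turned negative in 2 alternative fits. Of the bases of the Fabp3 transcript read in runs of 50, 29.2% of runs also occur in other genes. The gene with the most such matches was Fabp3-ps1, whose own values were 24 to 44. Lpl, which encodes lipoprotein lipase, and Acsl1, the main long-chain acyl-CoA synthetase of heart, differed by -0.10 and -0.15 with overlapping groups. Fabp4, the fatty acid binding protein of fat and endothelial cells, was at 921, 798 and 734 in wild type and 592, 608 and 921 in saline mutants, and its high mutant value came from replicate 3. All 8 endothelial markers were lower on average in saline mutants, with a median of -0.18 and sums of 928 to 1061 against 1021 to 1372, but 1 alone lay below wild type without overlap and none was called. Their part in the values of Fabp4 was not tested.

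In the carnitine shuttle, 1 of 5 genes fell (20%, against 3.14% of all genes). Below wild type without overlap were 3 of 5 (60%, against 8.78% of all genes). Slc25a20 encodes the carrier that exchanges acylcarnitine for carnitine across the inner membrane, and its promoter window holds the match shown above. It was at 211, 192 and 219 in wild type, 162, 151 and 124 in saline mutants, then 167, 182 and 175 after treatment. The groups did not overlap, with the treated hearts between the others. The log2 difference in saline mutants was -0.51 (SE 0.121, limma adjusted p 0.0374), called in 10 of 19 alternatives, and each library left out raised the adjusted p above 0.05 except saline mutant replicate 1.

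Cpt2, which reforms acyl-CoA inside the mitochondrion, was at 254, 219 and 247 in wild type and 185, 191 and 146 in saline mutants. That difference of -0.47 was larger than the spread within the groups but had a limma adjusted p of 0.0618. Mlycd encodes malonyl-CoA decarboxylase, which removes the inhibitor of the outer carnitine palmitoyltransferases. It was at 165, 132 and 154 in wild type and 114, 119 and 100 in saline mutants, a difference of -0.43 (limma adjusted p 0.0668). Both genes were thus lower in every mutant library, short of the threshold. Cpt1a, the form of the outer transferase that predominates in liver, differed by 0.01 (interval -0.22 to 0.23). Cpt1b, the muscle form, was listed at 1, 2 and 2 in wild type, 2, 3 and 3 in saline mutants, then 3, 4 and 3 after treatment. These values are close to the rounding of the table and are uncertain, because 81.4% of the exonic bases of Cpt1b are shared on the same strand with the annotated gene Gm44502, and reads there may not have been assigned to Cpt1b. The difference of 0.47 was not called (limma adjusted p 0.324).

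Beta oxidation held the broadest difference: 7 of 19 genes fell (36.8%, against 3.14% of all genes) and 18 of 19 were lower on average. Below wild type without overlap were 16 of 19, 84.2% of the role against 8.78% of all genes. The median log2 difference was -0.44. It was between -0.53 and -0.34 over the 19 alternative fits, in which 18 or 19 of the genes tested were lower. The number called fell to 1 without wild type replicate 3 or without saline mutant replicate 2, and to 3 without wild type replicate 1 or saline mutant replicate 3. It fell to 4 without wild type replicate 2, and to 2 without the Xist libraries. Those fits called 3.71% to 5.57% of all genes tested, against 7.70% as reported. The summed value of the 19 genes was 11392, 10201 and 11527 in wild type, 8833, 8319 and 7051 in saline mutants, then 9580, 9480 and 9656 after treatment, so these sums did not overlap between any of the groups.

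**Figure D2:**
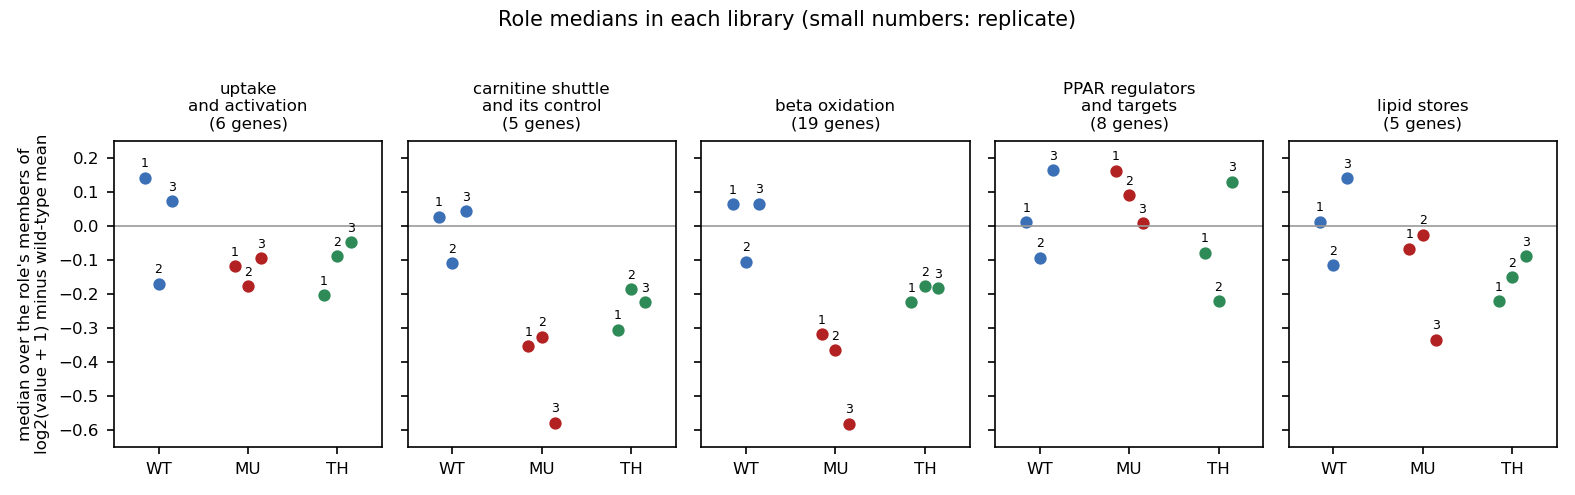
For each library, the median over the genes of a role of log2(value + 1) minus the wild-type mean of each gene (WT wild type with saline, MU mutant with saline, TH mutant with exABE8e; small numbers give the replicate). In beta oxidation the saline mutants lie at -0.58 to -0.32 and the treated mutants at -0.22 to -0.18, with replicate 3 the lowest mutant, while the PPAR role shows overlapping groups.

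Among the acyl-CoA dehydrogenases, which start each round, Acadm for medium chains fell. It was at 1128, 1109 and 1242 in wild type, 895, 832 and 722 in saline mutants, then 974, 1035 and 1021 after treatment, and no group overlapped another. The difference in saline mutants was -0.51 (SE 0.115, limma adjusted p 0.0308), and it was called in 10 of 19 alternatives. For Acadm, each library left out except saline mutant replicate 1 raised the limma adjusted p above 0.05, up to 0.129. Acads for short chains (-0.33), Acadvl for very long chains (-0.29) and Acad11 (-0.37) were below wild type without overlap and were not called, with limma adjusted p from 0.0903 to 0.243. Acadl for long chains, at -0.11, overlapped with wild type. Of Acadvl, 42.9% of exonic bases lie opposite another gene. Acad10 was the only gene of the role with a positive difference, 0.05, on values of 4 to 7. It was at 5, 4 and 5, then 4, 4 and 7, then 4, 6 and 5, and its sign changed between fits.

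Hydration and the next dehydrogenation rest on the enoyl-CoA hydratase Echs1, the hydroxyacyl-CoA dehydrogenase Hadh and the trifunctional protein encoded by Hadha and Hadhb. Hadh was at 682, 631 and 741 in wild type, 481, 445 and 380 in saline mutants, then 478, 530 and 574 after treatment. Both mutant groups lay below wild type and overlapped each other. The difference in saline mutants was -0.66 (SE 0.119, limma adjusted p 0.0116), called in 17 of 19 alternatives and missed without wild type replicate 3 or saline mutant replicate 2. Echs1 was at 408, 384 and 403, then 310, 309 and 266, then 341, 319 and 333. Its 3 groups stood apart, and the difference in saline mutants was -0.44 (SE 0.0996, limma adjusted p 0.0326). Each library left out in turn moved Echs1 past 0.05, up to 0.123.

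Hadha was at 1483, 1401 and 1574 in wild type, 1226, 1126 and 915 in saline mutants, then 1234, 1325 and 1287 after treatment. The groups did not overlap, but the difference of -0.46 had a limma adjusted p of 0.0763. Hadhb encodes the partner subunit and starts 273 bases from Hadha by RefSeq starts on chromosome 5, on the opposite strand. It was at 1580, 1338 and 1558, then 1258, 1174 and 1022, then 1487, 1306 and 1316, and differed by -0.37 in saline mutants (limma adjusted p 0.118). Of runs of 50 bases in Hadhb, 62.4% also occur in other genes, with the most matches in Gm13910. The values of Gm13910, 406 to 473 in wild type and 310 to 392 in saline mutants, were lower in the mutants as well.

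The largest difference of the role was at its last step. Acaa2, the mitochondrial thiolase that releases acetyl-CoA, was at 940, 809 and 949 in wild type, 547, 497 and 380 in saline mutants, then 622, 590 and 706 after treatment. The 3 groups did not overlap. The difference in saline mutants was -0.93 (SE 0.147, limma adjusted p 0.00631), and all 19 alternatives called it. Acaa1a, the thiolase of peroxisomes, was at 68 to 73 in saline mutants and 71 to 77 in wild type, a difference of -0.07 (interval -0.28 to 0.15) that was within the spread. Of its runs of 50 bases, 34.0% also occur in other genes, with the most matches in Acaa1b.

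The auxiliary enzymes for unsaturated fatty acids were lower in every saline mutant library. Ech1, a dienoyl-CoA isomerase, was at 1049, 728 and 869 in wild type, 599, 555 and 465 in saline mutants, then 792, 592 and 683 after treatment. Treated hearts overlapped with both saline groups, and the saline groups differed by -0.70 (SE 0.154, limma adjusted p 0.0279). Eci1, an enoyl-CoA isomerase, was at 290, 246 and 273, then 194, 185 and 165, then 226, 207 and 231, with no overlap between groups and a difference of -0.57 in saline mutants (SE 0.107, limma adjusted p 0.0136). Eci1 was called in 16 of 19 alternatives and Ech1 in 13; both missed the threshold without wild type replicate 3 or saline mutant replicate 2, and Ech1 also without wild type replicate 1 or saline mutant replicate 3. Decr1, the dienoyl-CoA reductase, differed by -0.45 (limma adjusted p 0.0528), and Eci2 by -0.30 (limma adjusted p 0.146).

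Electron transfer flavoprotein takes the electrons of the first dehydrogenation. Etfa, its alpha subunit, was at 618, 561 and 607 in wild type, 469, 450 and 396 in saline mutants, then 509, 526 and 509 after treatment. No group overlapped another, and the difference in saline mutants was -0.44 (SE 0.104, limma adjusted p 0.0356), called in 11 of 19 alternatives. The call for Etfa was lost with any library left out except saline mutant replicate 1 (limma adjusted p up to 0.132). The beta subunit Etfb was at 26, 21 and 24, then 18, 16 and 13, then 20, 19 and 19. It differed by -0.57 in saline mutants without a call (limma adjusted p 0.0590), and 58.3% of its exonic bases are shared on the same strand with Gm45233. Etfdh, the dehydrogenase that hands the electrons to ubiquinone, differed by -0.34 (limma adjusted p 0.142), also without overlap.

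**Figure D3:**
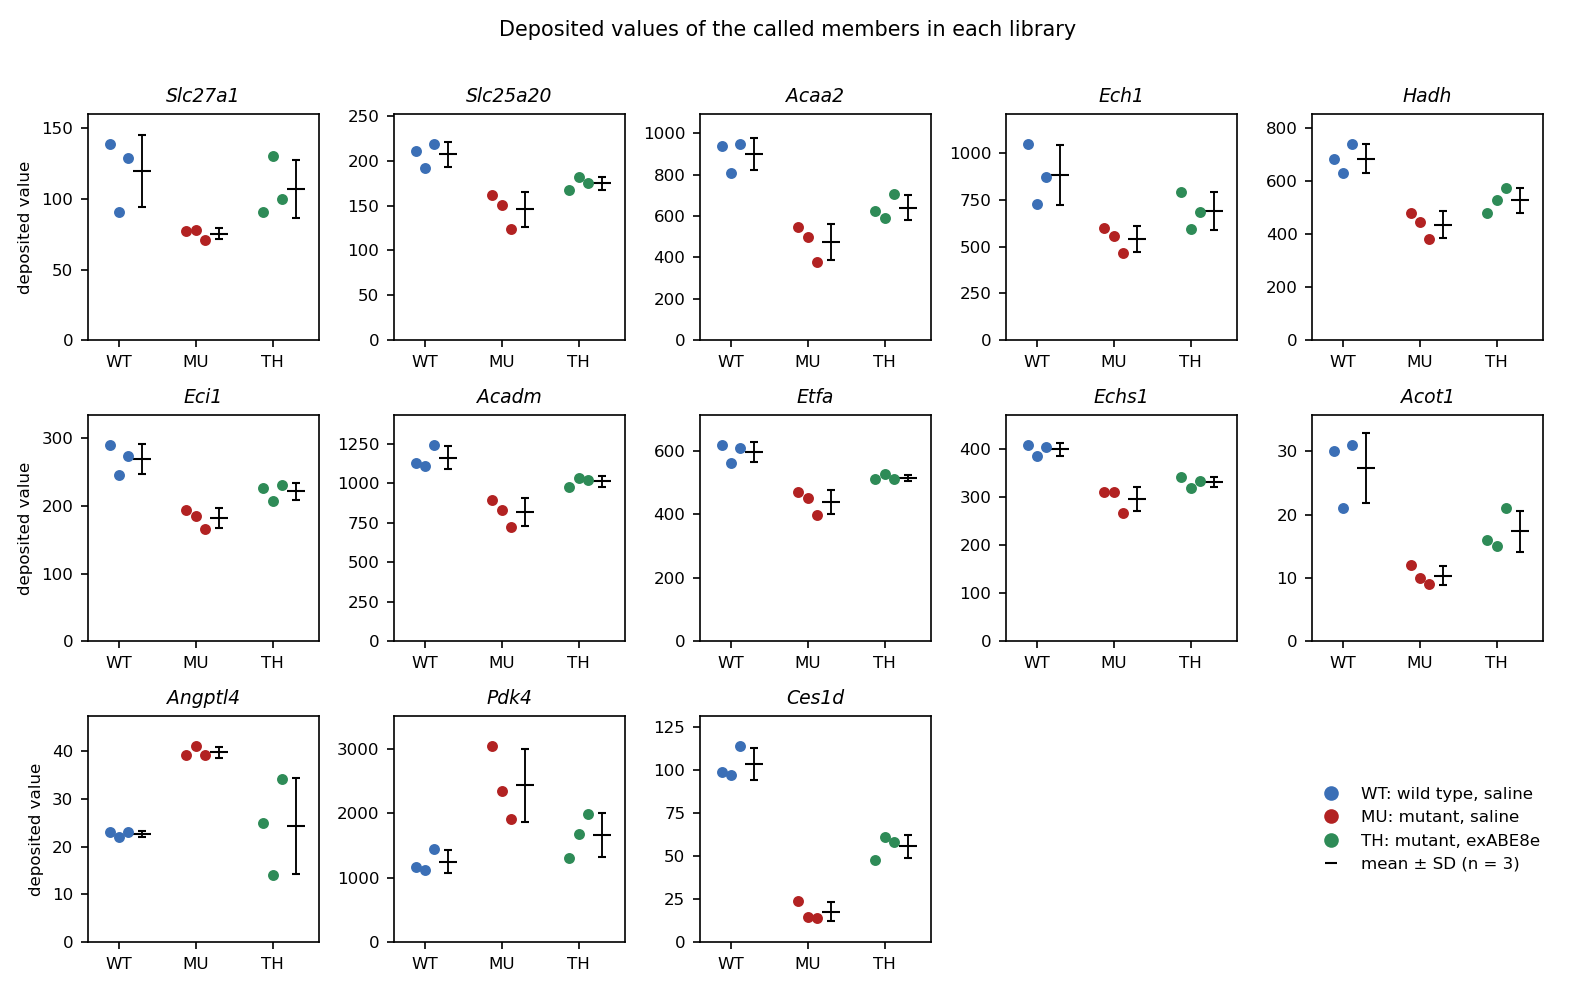
Deposited values in each library of the 13 genes called in saline mutants against wild type (points; WT wild type with saline, MU mutant with saline, TH mutant with exABE8e), with mean ± SD of 3 libraries and axes from 0. Pdk4 and Angptl4 are the 2 with higher saline mutants; treated hearts lie between the saline groups without overlap for Slc25a20, Acaa2, Eci1, Acadm, Etfa, Echs1 and Ces1d.

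The PPAR regulators and targets went both ways, with 4 of 8 lower on average. Of the 8, 2 were called higher (25%, against 4.56% of all genes) and 1 lower (12.5%, against 3.14%). Ppara itself was at 14, 29 and 29 in wild type, 32, 37 and 25 in saline mutants, then 21, 45 and 32 after treatment. These values overlapped, and the difference of 0.42 in saline mutants had an interval from -0.19 to 1.04 (limma adjusted p 0.444). Ppargc1a was at 66, 91 and 100, then 107, 89 and 88, then 82, 286 and 97. Treated replicate 2 stood far above the other 8 libraries. The difference of saline mutants from wild type was 0.16 (interval -0.21 to 0.53, limma adjusted p 0.671), and without wild type replicate 1 it was -0.02.

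Pdk4, the kinase that switches off pyruvate dehydrogenase and so limits glucose oxidation, rose. It was at 1174, 1116 and 1448 in wild type, 3043, 2337 and 1913 in saline mutants, then 1307, 1675 and 1987 after treatment. The saline groups were apart, and treated hearts overlapped with both. The difference in saline mutants was 0.95 (SE 0.181, limma adjusted p 0.0147), called in 15 of 19 alternatives and missed without wild type replicate 1 or saline mutant replicate 2 (up to 0.0752). Angptl4, a secreted inhibitor of lipoprotein lipase, also rose. Its values were 23, 22 and 23 in wild type, 39, 41 and 39 in saline mutants, then 25, 14 and 34 after treatment. The saline mutants were above every other library, by 0.78 over wild type (SE 0.103, limma adjusted p 0.00248). The call held in 18 of 19 alternatives and was lost in a fit over all 9 libraries (0.0868), in which the wide treated group enters the estimate of spread.

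Acot1, a cytosolic thioesterase that releases fatty acids from acyl-CoA, fell although the other 2 thioesterases of the role did not pass the test. It was at 30, 21 and 31 in wild type, 12, 10 and 9 in saline mutants, then 16, 15 and 21 after treatment. Every saline mutant value was below all others, and the difference was -1.31 (SE 0.180, limma adjusted p 0.00305), called in all 19 alternatives. Its neighbour on chromosome 12, Acot2, encodes the mitochondrial enzyme. Of runs of 50 bases in Acot1, 33.7% also occur in other genes, with the most matches in Acot2, so reads could be divided between these 2 genes. Acot2 differed by -0.13 (interval -0.45 to 0.20) and Acot13 by -0.04 (interval -0.29 to 0.21). Ucp3, an uncoupling protein of muscle mitochondria, was at 123, 114 and 132 in wild type, 114, 105 and 87 in saline mutants, then 55, 76 and 124 after treatment. Its difference of -0.27 was not called (limma adjusted p 0.264), and the lowest saline mutant was again replicate 3.

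Ces1d showed the largest difference of the 43 genes. It encodes a carboxylesterase that hydrolyses triglyceride and lies on chromosome 8, from 93166068 to 93197838 on GRCm38. Its values were 99, 97 and 114 in wild type, 24, 15 and 14 in saline mutants, then 48, 61 and 58 after treatment. The 3 groups were far apart. Saline mutants differed from wild type by -2.52 (SE 0.191, limma adjusted p 0.000213), and all 19 alternatives called it, with differences from -2.75 to -2.38. The other 4 genes of lipid stores were not called, so 20% of the role was called lower, against 3.14% of all genes. Lipe, hormone-sensitive lipase, was below wild type without overlap (-0.32, limma adjusted p 0.156). Plin5, the lipid droplet protein of oxidative tissue, was at 155, 117 and 156, then 135, 139 and 112, then 120, 114 and 141, and the groups overlapped (-0.14, limma adjusted p 0.660). Plin4 had the highest difference of the role, 0.15 (limma adjusted p 0.739), on values of 174, 217 and 312, then 282, 239 and 239, then 212, 344 and 284. Pnpla2, adipose triglyceride lipase, differed by -0.12 (interval -0.45 to 0.21).

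The wider pathway was read from 77 further genes listed by role, of which 73 could be tested. In saline mutants 10 of these fell (13.7%) and 2 rose (2.74%), against 3.14% and 4.56% of all genes. Below wild type without overlap were 20 (27.4%, against 8.78% of all genes). The median of the 73 was -0.10, against 0.07 for all genes tested. Next to the carnitine carrier, Crat, carnitine acetyltransferase, fell from 544, 505 and 559 to 408, 369 and 282 (-0.62, limma adjusted p 0.0321). Hsd17b10, a mitochondrial hydroxyacyl-CoA dehydrogenase, fell from 132, 113 and 122 to 92, 90 and 83 (-0.46, limma adjusted p 0.0271), and the thioesterase Acot7 from 63, 59 and 59 to 41, 40 and 42 (-0.55, limma adjusted p 0.0102). Acsl6, an acyl-CoA synthetase, was at 4, 7 and 7 in wild type and 1, 0 and 0 in saline mutants (-2.44, limma adjusted p 0.00268), which is close to the rounding of the table.

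Of 16 further regulators only Rxrg, a retinoid X receptor and possible partner of PPAR alpha, was called (6.25%, against 3.14% of all genes called lower). It was at 62, 59 and 59 in wild type, 33, 32 and 23 in saline mutants, then 46, 56 and 45 after treatment, and the groups did not overlap. Saline mutants fell by 1.02 (SE 0.146, limma adjusted p 0.00371), in all 19 alternatives. Among genes of triglyceride synthesis and breakdown, Dgat2 fell from 437, 404 and 491 to 285, 278 and 246 (-0.72, limma adjusted p 0.00575). Mgll, monoacylglycerol lipase, fell from 175, 184 and 180 to 119, 126 and 141 (-0.48, limma adjusted p 0.0201).

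Pdk2, another kinase of pyruvate dehydrogenase, fell from 386, 383 and 437 to 310, 289 and 237 (-0.53, limma adjusted p 0.0334), opposite to Pdk4. Ucp2 rose from 104, 107 and 98 to 179, 186 and 203 (0.87, limma adjusted p 0.00112), while Ucp3, of the same family, was not called. Cyp4b1, of a cytochrome P450 family that oxidises fatty acids, fell by 0.79 and the mitochondrial carrier Slc25a34 by 0.61 (limma adjusted p 0.00813 and 0.00822). Bdh1, the dehydrogenase that interconverts ketone bodies, rose from 18, 12 and 16 to 57, 64 and 40 (1.73, limma adjusted p 0.00149). In treated hearts Bdh1 was at 147, 120 and 24, so replicate 3 was near the wild-type range and the others above the saline mutants. Of these 12 genes, Acsl6, Rxrg, Dgat2, Cyp4b1, Slc25a34, Bdh1 and Ucp2 were called whichever library was left out, though Bdh1 was lost in the fit over all 9 libraries (0.0890). Acot7 was lost only without saline mutant replicate 2 (0.0678), and Crat, Hsd17b10, Mgll and Pdk2 were each lost in 4 or 5 of the 6 such fits.

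**Figure D4:**
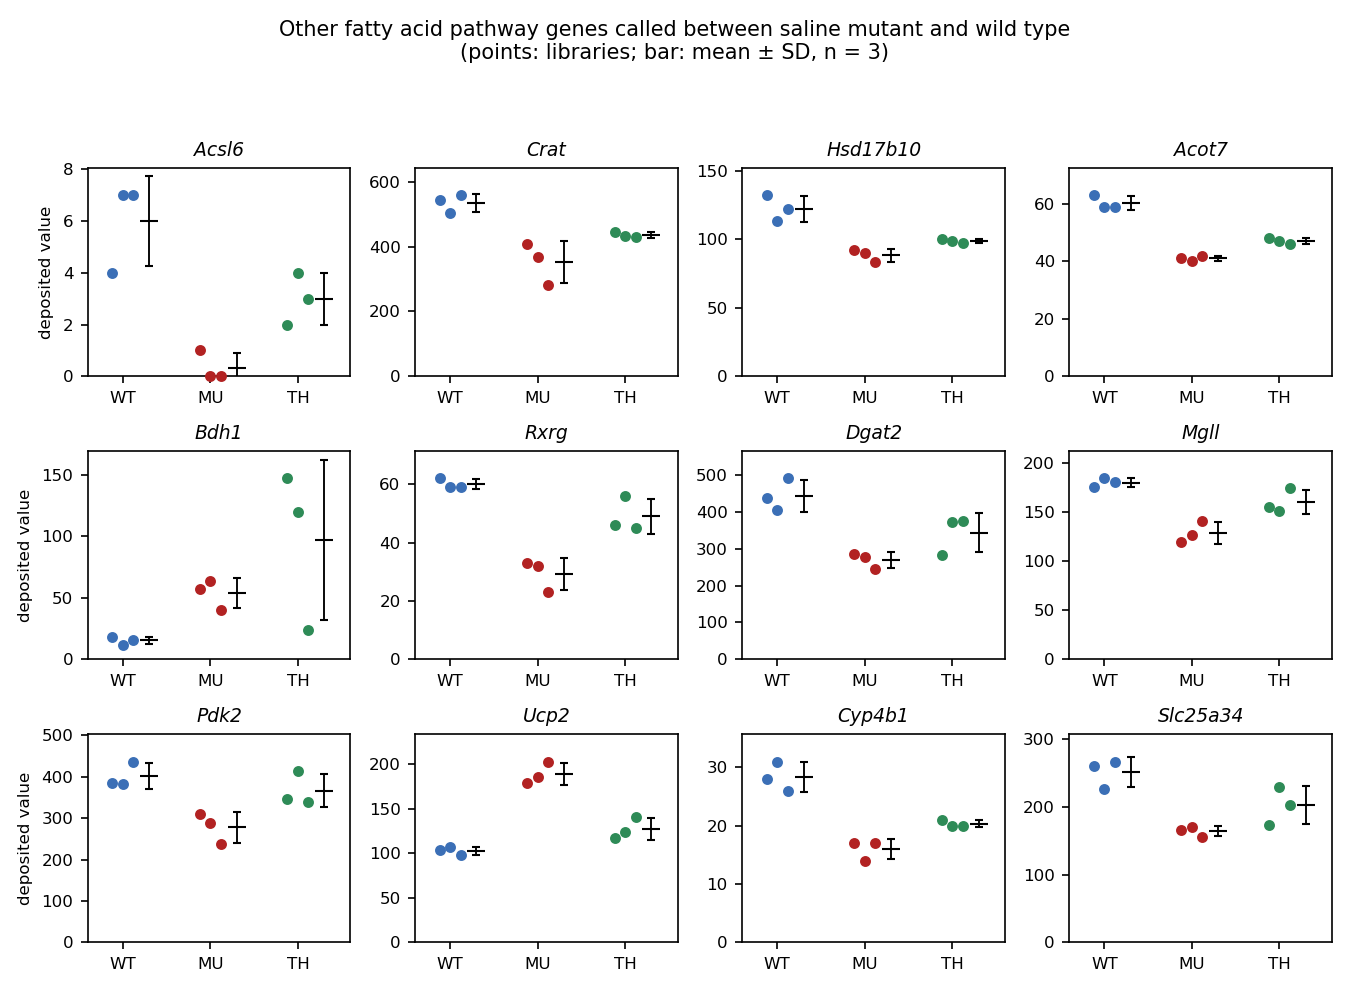
Deposited values in each library (points; WT blue, MU red, TH green) with mean ± SD of 3 libraries for the 12 other pathway genes called in saline mutants against wild type. Saline mutants are lower in 10 panels and higher for Bdh1 and Ucp2, and the treated values of Bdh1 spread from 24 to 147.

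Treated mutants were then compared with saline mutants. The treated group alone was given AAV9 with the editor, so effects of the virus, of editor expression and of the edited gene cannot be told apart. None of the 43 genes was called by limma, in a comparison that called 0.0147% of 13636 genes (2 genes). At an unadjusted p under 0.05 there were 9 of the 43, 7 higher and 2 lower, 20.9% against 8.29% of all genes. Treated values were higher on average for 35 of the 43 genes, and the median log2 difference was 0.19, against -0.02 for all genes tested. All 3 treated values lay above all 3 saline mutant values for 19 of the 43 (44.2%, against 5.48% of all genes) and below for 1, Angptl4, against 4.34%. This comparison and the comparison of saline mutants with wild type use the same 3 saline mutant libraries, so low values in those libraries enter both. Without saline mutant replicate 3 the median difference was 0.12 and 11 of the 43 genes were lower.

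By role, all 19 beta oxidation genes were higher on average in treated than in saline mutants, with a median of 0.24. For 13 there was no overlap (68.4%, against 5.48% of all genes). The median was between 0.15 and 0.30 over the 19 alternatives, and it was lowest without the Xist libraries. Acaa2 differed by 0.44 (SE 0.150, limma adjusted p 0.505), Ech1 by 0.35, Acadm by 0.31 (SE 0.114, limma adjusted p 0.511) and Hadha by 0.25 (limma adjusted p 0.671). The 95% interval for Acaa2 ran from 0.10 to 0.78. In the carnitine shuttle 3 of 5 genes, Cpt2, Slc25a20 and Mlycd, were higher without overlap, by 0.19 to 0.27. The uptake genes went both ways. Slc27a1 was higher by 0.49 without overlap (limma adjusted p 0.412). Fabp4 was lower by 0.28 (interval -0.74 to 0.18, limma adjusted p 0.746), with overlapping values of 592, 608 and 921 in saline mutants and 539, 487 and 709 after treatment. Cd36 differed by 0.01 (interval -0.26 to 0.27).

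Ces1d had the largest difference, 1.63 (SE 0.203, limma adjusted p 0.0656), with treated values of 48, 61 and 58 above 24, 15 and 14. Its adjusted p ranged from 0.00921 to 0.356 over 19 alternatives, of which 7 called it. Acot1 was higher by 0.69 (SE 0.174, limma adjusted p 0.331), with 16, 15 and 21 above 12, 10 and 9. Angptl4 was lower by 0.77 (SE 0.268, limma adjusted p 0.506) and its treated values, from 14 to 34, spread more widely than either saline group. Pdk4 was lower by 0.55 (limma adjusted p 0.536) with overlap. Ppargc1a was higher by 0.48, and lower by 0.08 without treated replicate 2, the library at 286. Of the wider pathway genes 0 were called here, with 11 of 72 at an unadjusted p under 0.05 (15.3%, against 8.29% of all genes).

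The fibroblast markers moved the other way in this comparison, all 6 lower on average in treated hearts. For 3 there was no overlap (50%, against 4.34% of all genes), with sums of 1636 to 2251 against 2247 to 3600. The macrophage markers also moved the other way, all 6 lower on average with a median of -0.43. None was without overlap, and their sums were 223 to 328 against 262 to 494. All 5 red blood cell markers were higher without overlap. Of the 10 cardiomyocyte markers 3 were above without overlap (30%, against 5.48% of all genes), and the median of the 10 was 0.09. The part of all these markers in the differences of the fatty acid genes was not tested.

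Treated mutants were also compared with wild type, which had saline and no AAV9. Ces1d alone of the 43 was called: it fell by 0.88 (SE 0.124, limma adjusted p 0.0285), 48, 61 and 58 against 99, 97 and 114. That is 2.33% of the 43 genes, against 0.125% of all 13554 genes called lower and 0.863% called higher. The call was lost whichever library was left out (adjusted p up to 0.109) and without the Xist libraries (0.131), although the difference stayed between -0.96 and -0.78 over all 19 alternatives. Treated hearts were lower on average for 31 of the 43 genes, with a median of -0.16 against 0.01 for all genes. They were below wild type without overlap for 16 (37.2%, against 5.43% of all genes), and above for 1, Cpt1b, against 9.13%.

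Beta oxidation again held most of these genes: 16 of 19 were lower on average, with a median of -0.20. Below without overlap were 11 (57.9%, against 5.43% of all genes). Acaa2 differed by -0.49 (SE 0.112, limma adjusted p 0.122), Hadh by -0.38 (limma adjusted p 0.211), Eci1 by -0.28 (limma adjusted p 0.303) and Acadm by -0.20 (limma adjusted p 0.434). All 4 were below wild type in every treated library. Fabp4, at 539, 487 and 709 against 921, 798 and 734, was below without overlap (-0.51, limma adjusted p 0.242). Acot1 (-0.62, limma adjusted p 0.230) and Ucp3 (-0.61, limma adjusted p 0.407) overlapped with wild type. Pdk4 was higher by 0.40 with overlap (limma adjusted p 0.409), and Angptl4 differed by 0.01, with an interval from -0.63 to 0.66 that spans sizeable changes both ways. Of the wider pathway genes 0 were called by limma, with 16 of 73 at an unadjusted p under 0.05 (21.9%, against 12.5% of all genes). Of 10 cardiomyocyte markers 7 were lower on average than in wild type, 3 without overlap (30%, against 5.43% of all genes). Above without overlap was 1, and the median of the 10 was -0.08. Of 6 fibroblast markers 4 were higher on average, and of 6 macrophage markers 3. All 5 red blood cell markers were lower on average, none without overlap. The part of these markers in the differences of the fatty acid genes was not tested.

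The authors' own lists of selected genes rest on other thresholds than the calls above. In each of the authors' deposited tables of selected genes, the smallest change was 0.586 to 0.590 in size on the log2 scale and the largest value of the adjusted p column 0.0477 to 0.0499, and no other gene of the full table lay within both bounds. That column in the authors' deposited tables equalled, within a relative 1e-06, the two-sided normal p of the authors' statistic for 100% of genes with a value, so it carries no adjustment for the number of genes. Of the 689 genes in the authors' deposited table of selected genes for saline mutants against wild type, 9 were among the 43: Slc27a1, Hadh, Ech1, Eci1, Acaa2, Acot1 and Ces1d lower, and Pdk4 and Angptl4 higher. That selection holds 4.42% of the genes in the authors' deposited table. Ces1d was at -2.62 and Acaa2 at -0.98 on the log2 scale of the authors' deposited table. Acadm (-0.57), Slc25a20 (-0.57), Etfa (-0.51) and Echs1 (-0.50), called by limma, had changes smaller than any listed in the authors' deposited table. Ces1d alone of the 43 was selected in the authors' deposited tables for treated against saline mutants (1.68) and treated mutants against wild type (-0.91). Those selections hold 137 and 317 genes, 0.879% and 2.06% of the genes in the authors' deposited tables, against 2.33% for 1 of the 43.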

How the data were processed

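The deposited values per gene and library were used as a score: whole numbers as the authors deposited them, with sums between 999152 and 999382 in every library. Such equal sums are not those of raw counts, no header or label names the unit, and how the values were normalised is not given in the sources used here. The submitters' processing notes name HISAT2, HTSeq, DESeq2 and the build mm10, without role or order. The authors' log2 fold changes, per the file headers, are printed only where their deposited tables are named, and every other log2 difference was computed here. The deposited adjusted p-value column equals the unadjusted p of the authors' statistic, so no p-value of theirs is used for a call.

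Each pair of groups was fitted alone, in R 4.3.3 with limma 3.58.1, on values logged to base 2 after adding 1, if the mean over 6 libraries was at least 1. Residual variances were floored at that of rounding (1/12 for whole numbers), the empirical Bayes prior had a trend and took its degrees of freedom from means of at least 30, and p-values were adjusted by Benjamini-Hochberg over all genes tested, with a call under 0.05. A log2 difference on this scale understates changes of low values. No value differed between the 3 tables for the same gene and library. Genomic positions and shared sequence are from GENCODE M21 (GRCm38), matched by symbol, except promoter windows and the Hadha and Hadhb starts, which are from RefSeq.

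The 43 genes, the role groups, the other gene lists and the fit were chosen with earlier results of these data known. Values in all 9 libraries are given for the genes called, for the highest and lowest difference of each role, and for Ppara, Ppargc1a, Pdk4, Ucp3, Angptl4, Cd36, Cpt1b, Acadm, Hadha and Plin5. Values of a few others are given as context. Of the other lists, called genes are named. The 19 alternatives per comparison changed the pseudocount, filter, scaling, variance step, libraries, block or Xist term. The promoter match count, the shared sequence and the values of Gm13910 were added after the values had been seen.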

Additional observations from a re-analysis of the deposited data

How the results depend on the processing

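Each comparison was refitted in 19 ways. In saline mutants against wild type the median difference of the 43 genes stayed negative throughout, and Acaa2, Acot1 and Ces1d were called each time. The number of the 43 called, 13 as reported, was 8 without the rounding floor and 6 without the Xist libraries, where 556 genes were called in all. Leaving out 1 library gave 4 to 12 of the 43 and 506 to 1029 of all genes. In treated against saline mutants, 1 of the 43, Ces1d, was called with a filter at a mean of 10, upper-quartile or median-of-ratios scaling, a prior from all genes, or 1 fit over all 9 libraries, where 6, 10, 10, 14 and 13 genes were called in all. Without the floor 32 genes were called and with Xist as a covariate 5. Leaving out 1 library gave 0 to 1 of the 43 and 2 to 8 genes. In treated mutants against wild type, 0 of the 43 were called without the floor (77 genes in all), without the Xist libraries (9) and whichever library was left out (1 to 133). With no filter 86 genes were called, with a prior from all genes 243, in the fit over 9 libraries 236 and with the Xist covariate 203. The median of the 43 was -0.24 under upper-quartile scaling. The cause of these shifts was not tested.

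Some differences changed sign: of the 43 genes, 10 did so in saline mutants against wild type, 9 in treated against saline mutants and 11 in treated mutants against wild type, none of them called as reported. Over the 19 alternatives, saline mutants differed from wild type by -0.0896 to 0.0468 for Cpt1a, -0.203 to 0.00265 for Acadl, -0.262 to 0.0338 for Acot2, -0.133 to 0.0328 for Acot13 and -0.239 to 0.0550 for Pnpla2. Treated differed from saline mutants by -0.0461 to 0.0903 for Cd36. In saline mutants against wild type, Fabp3 was at -0.00716 with upper-quartile scaling, and at -0.0222 to 0.173 when 1 library was left out. Acad10 was at -0.0315 with upper-quartile scaling, -0.0131 with median-of-ratios scaling and -0.132 without the Xist libraries, and at -0.175 to 0.164 when 1 library was left out. Without the Xist libraries Plin4 was at -0.00333 and Plin5 at 0.0197. With 1 library left out, Plin4 was at -0.0430 to 0.376 and Ppargc1a at -0.0167 to 0.279. In treated against saline mutants Ppargc1a was at -0.0793 to 0.816 with 1 library left out. In treated mutants against wild type, Slc27a1 was at 0.0729 without the Xist libraries. Angptl4 was at -0.0632, -0.00384 and -0.0314 with upper-quartile scaling, median-of-ratios scaling and scaling without mitochondrial transcripts, at -0.0362 without the Xist libraries, and at -0.261 to 0.350 with 1 library left out.

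The groups share replicate numbers, but the libraries share only a number: correlations of same-numbered deviations ran from -0.42 to -0.03, -0.08 to 0.21 and -2.33e-05 to 0.60 in the 3 comparisons, and 0, 4 and 2 of 6 libraries correlated best with their own number. With the number as a replicate block, 9, 1 and 0 of the 43 genes were called, and 819, 30 and 35 genes in all.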
